A study of Homo sapiens with 12 samples.

Results

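The 2 resistant melanoma lines compared here descend from one parent, WM1366, a human melanoma cell line described by the submitters as NRAS-mutant. The EB-resistant line was grown in encorafenib with binimetinib and the DT-resistant line in dabrafenib with trametinib. Each pair joins a BRAF inhibitor to a MEK inhibitor. The comparison takes the 3 EB-resistant and the 3 DT-resistant libraries, which are 6 of the 12 in the series. The other 6 are a VC-resistant line (vemurafenib with cobimetinib) and the sensitive parent in DMSO, 3 libraries each. The samples come from 3 independent experiments, in which cells had been seeded 72 h before lysis with their drugs (or DMSO). Replicates are numbered 2, 5 and 6 in every line, and the labels do not say whether a number marks the same experiment in each. No dose is stated in the labels. There is 1 line per drug pair, and both lines were lysed in their own drugs, so the drug pair, the drugs' direct action and the history of each line cannot be told apart. The p-values measure the spread between replicate libraries within lines, estimated from all 12 libraries in 1 model. They do not cover how far other lines grown in the same drugs would differ.

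NRAS is a GTPase that passes growth signals to the RAF kinases, which phosphorylate MEK (MAP2K1 and MAP2K2), which in turn phosphorylates the ERK kinases. ERK switches on a set of early genes, among them its own brakes of the dual-specificity phosphatase (DUSP) and Sprouty (SPRY) families, the ETV transcription factors, cyclin D1 and MYC. Melanoma cells kept in inhibitors of this route are known to survive by restoring ERK signalling, by using other receptor tyrosine kinases, or by leaving the pigment cell state for a mesenchymal one.

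Most tested genes separated the lines. Of 17114 genes tested, 9787 (57.2%) passed an adjusted p of 0.05 in edgeR's quasi-likelihood test. These were 4865 higher in EB-resistant cells (28.4%) and 4922 lower (28.8%). Among them, 2047 were at least 2-fold higher (12.0% of the genes tested) and 1526 at least 2-fold lower (8.92%), 268 and 155 were at least 16-fold higher and lower, and 3796 differed by less than 1.5-fold. These percentages are the background for every list count below, and a list with a similar share of members called is not set apart by it. The median log2 fold change over all tested genes was 4e-04. In bulk RNA, a change in every cell and a change in the share of cells that express a gene cannot be told apart. The libraries held 44969991 to 47038820 counts in EB-resistant cells and 43776602 to 49660436 in DT-resistant cells, so that 1 CPM (a count scaled to the library total by TMM) rests on over 40 counts. The first principal component of the 6 libraries, 83.2% of their variance, separated the lines. The second, 6.81%, set DT-resistant replicate 2 (40.5) apart from DT-resistant replicates 5 (-13.9) and 6 (-29.0), while the EB-resistant libraries lay between -6.09 and 6.14. Without DT-resistant replicate 2, 9150 genes were called. All fold changes below are EB-resistant over DT-resistant, and "rose" and "fell" describe the EB-resistant line relative to the DT-resistant line.

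**Figure D1:**
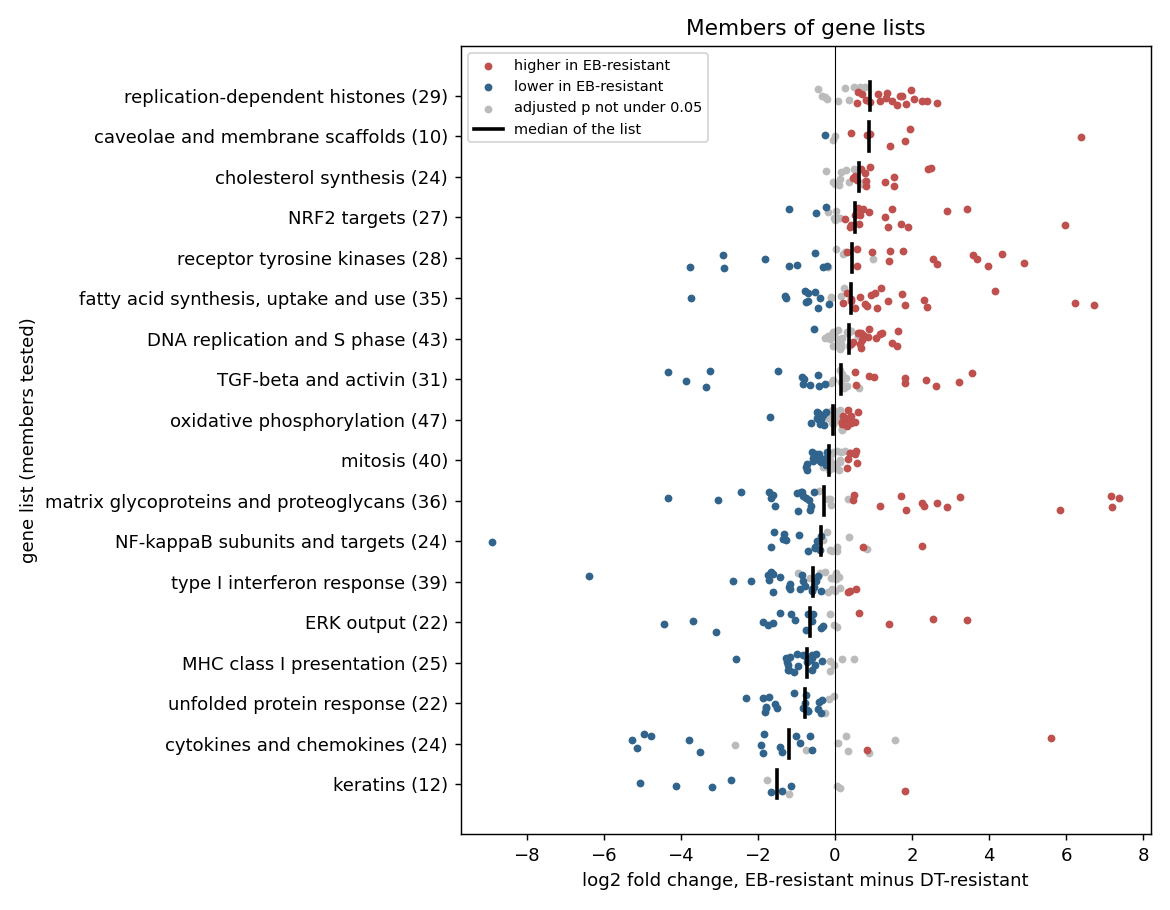
Log2 fold change of EB-resistant over DT-resistant cells (x axis) for each tested member of 18 gene lists (rows, ordered by median, number of members in brackets). Red and blue points passed an adjusted p of 0.05, grey points did not, and bars are medians. Keratins, cytokines, the unfolded protein response and MHC class I genes lie mostly left of 0, and histones, caveolae, cholesterol synthesis and NRF2 targets mostly right.

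Genes of the RAS-ERK route moved in both directions. MAP2K1, which encodes one of the MEK kinases that binimetinib and trametinib inhibit, measured 39.5, 36.1 and 38.6 CPM in the EB-resistant libraries of replicates 2, 5 and 6, against 81.9, 84.7 and 82.6 CPM in the DT-resistant libraries. The lines were well apart and the replicates close together, and the log2 fold change was -1.13 ± 0.066 (SE, adjusted p = 4.02e-09), a level 2.18-fold lower in EB-resistant cells. MAP2K2, which encodes the other MEK kinase, did not pass the test, at 125 ± 3.72 CPM in EB-resistant and 133 ± 17.2 CPM in DT-resistant cells (log2 fold change -0.09, adjusted p = 0.381). BRAF averaged 28.8 ± 1.74 CPM in EB-resistant and 46.5 ± 8.12 CPM in DT-resistant cells (1.62-fold lower; SD, n = 3 each). MAPK3, an ERK gene, moved the other way, at 43.3 ± 3.34 and 25.6 ± 0.829 CPM. NRAS itself did not pass the test, with 384, 396 and 389 CPM in EB-resistant against 426, 418 and 409 CPM in DT-resistant libraries (log2 fold change -0.10, adjusted p = 0.16). Over the whole cascade list, 6 of 23 tested members rose and 7 fell, 3 of them at least 2-fold, with a median log2 fold change of -0.07. Its share called in either direction, 56.5%, was near the 57.2% of all genes.

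A stretch of chromosome 3 showed some of the largest differences at high expression. There, 5 protein-coding genes that follow each other from TMEM40 to NUP210 (12733528 to 13420322, hg38) were all at least 5.84-fold lower in EB-resistant cells. They were looked up after values of these data were seen. NUP210, a membrane protein of the nuclear pore, had 46.3, 45.4 and 45.3 CPM in EB-resistant and 2773, 2730 and 2159 CPM in DT-resistant libraries, a 55.9-fold difference. RPL32, a ribosomal protein, averaged 824 ± 48.2 CPM in EB-resistant and 11170 ± 701 CPM in DT-resistant cells (13.6-fold), and IQSEC1, an exchange factor for ARF GTPases, 39.1 ± 2.52 and 528 ± 59.95 CPM (13.5-fold). TMEM40 (11.7-fold) and CAND2 (5.84-fold, at 0.460 and 2.71 CPM) were lower as well. RPL32 lies within CAND2 on the opposite strand, so without a known strand setting of the counting their reads cannot be fully told apart.

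The next gene, HDAC11, a histone deacetylase, went the other way and rose 14.8-fold at a low level (3.09 ± 0.285 against 0.208 ± 0.0696 CPM). In the VC-resistant line RPL32, IQSEC1 and NUP210 averaged 11340, 510.1 and 2312 CPM, near the DT-resistant means, and in the sensitive parent 754, 36.8 and 49.9 CPM, near the EB-resistant means. CAND2 differed from them, at 0.206 CPM in VC-resistant cells. DNA copy number was not measured in these files, and its part in the difference was not tested.

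**Figure D2:**
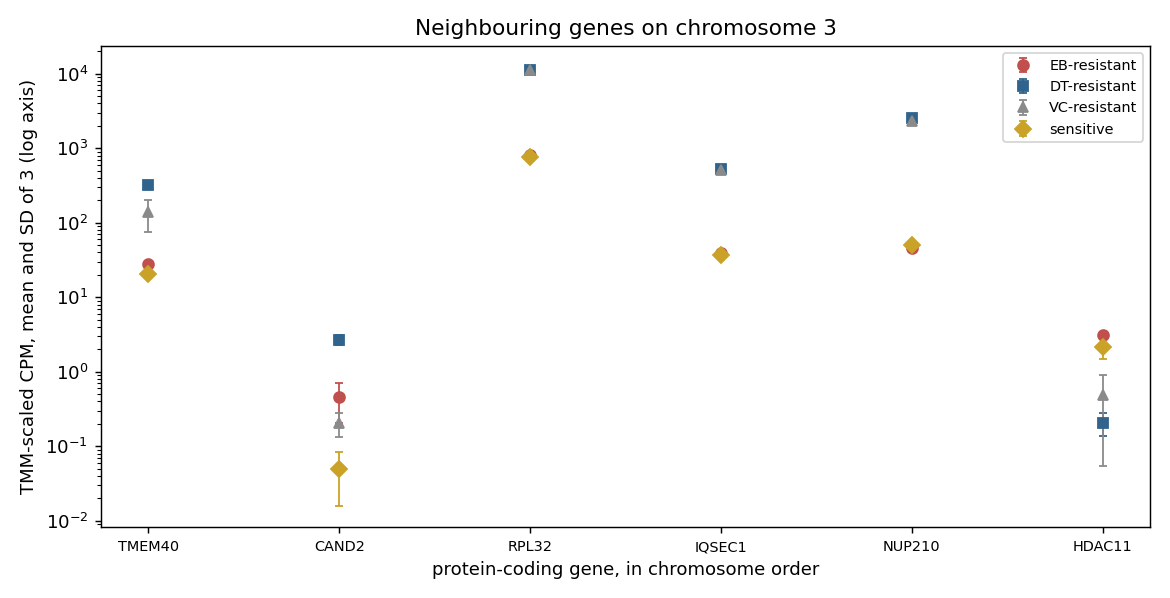
TMM-scaled CPM (log axis, mean and SD of 3 libraries) of 6 protein-coding genes of chromosome 3, in chromosome order, in the 4 lines. From TMEM40 to NUP210 the DT-resistant points lie above the EB-resistant points, RPL32 at 11170 against 824 CPM, and for HDAC11 they lie below.

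RPL32 was large enough to move a bulk measure. Ribosomal protein genes took 5.91 ± 0.28% of counts in EB-resistant and 6.88 ± 0.22% in DT-resistant libraries (SD, n = 3 each; exact permutation test, two-sided, p = 0.1, the smallest that 3 against 3 allow). RPL32 alone took 0.0866 ± 0.0052% and 1.08 ± 0.05%. Without it, a measure added after the values were seen, the shares were 5.83 ± 0.28% in EB-resistant and 5.80 ± 0.17% in DT-resistant libraries, a difference smaller than either SD. Of the 82 ribosomal protein genes tested, 9 rose and 34 fell (26 without DT-resistant replicate 2), the list's median log2 fold change was -0.13, and RPL32 was the only member called with a change of at least 2-fold.

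ERK output was lower in EB-resistant cells. Of the 22 genes of that list, 15 fell and 4 rose, with a median log2 fold change of -0.64. Without DT-resistant replicate 2 the number that rose was 2, and without DT-resistant replicate 5 it was also 2. SPRY4, a Sprouty inhibitor of the RAS route, measured 1.44, 0.509 and 0.861 CPM in EB-resistant libraries and 22.8, 23.1 and 15.2 CPM in DT-resistant libraries, with no overlap (21.7-fold lower, adjusted p = 3.09e-07). DUSP6, the phosphatase of ERK, measured 5.75, 4.78 and 6.36 CPM against 15.8, 22.1 and 13.3 CPM (3.04-fold lower). The transcription factor genes ETV1 (3.21 ± 0.653 and 41.1 ± 7.75 CPM), ETV4 (5.07 ± 0.212 and 42.99 ± 4.63 CPM) and ETV5 (71.9 ± 4.04 and 148 ± 28.5 CPM) fell together, by log2 fold changes of -3.68, -3.08 and -1.04. CCND1, which encodes cyclin D1, averaged 37.5 ± 8.03 CPM in EB-resistant and 138 ± 10.1 CPM in DT-resistant cells, and MYC 37.9 ± 1.797 and 127 ± 42.1 CPM.

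The members that rose were not the feedback genes. EPHA4, an ephrin receptor, rose 2.65-fold, and FOSL1, a partner of JUN in AP-1, rose 1.53-fold. The immediate early genes FOS and EGR1 were called higher but rested on little: FOS measured 0.167, 7.04 and 4.77 CPM in EB-resistant against 0.106, 0.418 and 0.599 CPM in DT-resistant libraries, so the lines overlapped, and EGR1 0.5001, 1.36 and 5.103 against 0.0851, 0.485 and 0.622 CPM, again with overlap. The FOS call (log2 fold change 3.42, adjusted p = 0.0186) was lost without EB-resistant replicate 5 (adjusted p = 0.0589), without DT-resistant replicate 2 (0.0763) and without DT-resistant replicate 5 (0.0526). The EGR1 call (log2 fold change 2.56, adjusted p = 0.0408) was lost without EB-resistant replicate 6 (log2 fold change 1.25, adjusted p = 0.179). It was also lost without DT-resistant replicates 2 (0.14), 5 (0.0834) or 6 (0.0646), and with the replicate number in the model of 12 libraries (0.0621). In the sensitive parent, grown without inhibitors, DUSP6 averaged 106 CPM, SPRY4 50.2 CPM and CCND1 421 CPM.

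**Figure D3:**
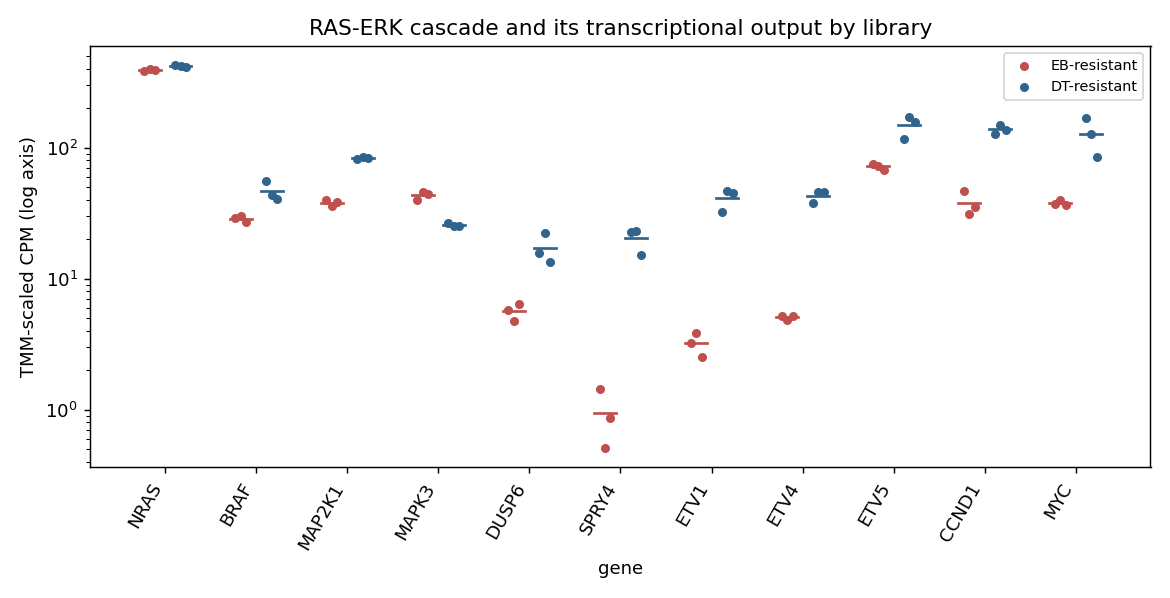
TMM-scaled CPM (log axis) of RAS-ERK cascade genes and ERK output genes in each EB-resistant (red) and DT-resistant (blue) library, with a short bar at the mean of 3. The NRAS points lie close together, MAP2K1 is lower in EB-resistant cells, MAPK3 is higher, and DUSP6 to MYC are lower.

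AP-1 and related factors went both ways: 8 of 16 tested members rose and 5 fell. JUN rose (271 ± 20.8 against 158 ± 10.8 CPM), whereas MAFF (16.5 ± 4.85 against 125 ± 10.7 CPM) and MAFK (67.2 ± 11.1 against 196 ± 39.8 CPM), small MAF proteins that pair with other leucine zipper factors, fell. BATF, an AP-1 factor known from lymphocytes, was read at 2.46, 2.26 and 2.31 CPM in EB-resistant libraries, with 0 counts in all 3 DT-resistant libraries. It averaged 0.453 CPM in the sensitive parent and 0 CPM in VC-resistant cells. The orphan receptor genes NR4A1 (3.76-fold), NR4A2 (5.33-fold) and NR4A3 (16.99-fold), known as rapidly induced transcription factors, were all lower in EB-resistant cells.

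Inflammatory cytokine genes were much lower in EB-resistant cells. Of 24 tested cytokine and chemokine genes, 15 fell, 12 of them at least 2-fold, and 2 rose, with a median log2 fold change of -1.18. IL6, a cytokine that acts through STAT3, measured 77.8, 48.96 and 65.6 CPM in EB-resistant libraries against 630, 837 and 1183 CPM in DT-resistant libraries (13.8-fold, adjusted p = 1.06e-05). IL1B measured 5.25, 1.77 and 2.33 CPM against 38.1, 119.5 and 169 CPM and IL1A 2.85, 1.18 and 1.83 CPM against 42.3, 63.02 and 77.2 CPM, both encoding interleukin-1. The DT-resistant libraries differ among themselves here, with replicate 2 lowest and replicate 6 highest for all 3 genes, yet none overlaps the EB-resistant line. Without EB-resistant replicate 2 the log2 fold change of IL1B was -5.72, against -5.12 with all libraries. IL11 (8.38 ± 4.41 and 230.5 ± 63.8 CPM) and the chemokine gene CCL20 (1.43 ± 0.569 and 55.3 ± 28.5 CPM) fell 27.5-fold and 38.6-fold.

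CXCL8, the neutrophil chemokine interleukin-8, measured 285, 46.9 and 65.8 CPM in EB-resistant and 149.7, 768 and 1495 CPM in DT-resistant libraries. Its lines overlapped and it did not pass the test (log2 fold change -2.60, adjusted p = 0.0569), although it did without EB-resistant replicate 2 (0.0203, log2 fold change -3.83) and without DT-resistant replicate 2 (0.0254, log2 fold change -3.10). Without DT-resistant replicate 6 its log2 fold change was -1.79. The 2 that rose were CCL2, the monocyte chemokine, at 15.2, 9.52 and 9.41 CPM against 0.191, 0.176 and 0.322 CPM, and CSF1, the macrophage growth factor, at 89.4 ± 9.52 against 50.4 ± 7.48 CPM. Without DT-resistant replicate 6 the number that rose was 4.

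NF-kappaB genes moved with the cytokines. This family of factors sits downstream of interleukin-1 and TNF receptors, and in its list 13 of 24 tested members fell and 2 rose (median log2 fold change -0.37). Its share called in either direction, 62.5%, was near the 57.2% of all genes. NFKB2, the precursor subunit of the non-canonical branch, averaged 56.01 ± 7.09 CPM in EB-resistant and 176 ± 4.096 CPM in DT-resistant cells, and its partner RELB 30.6 ± 5.02 and 91.7 ± 18.4 CPM. RELA, the subunit of the canonical branch, did not pass the test (135 and 143 CPM, adjusted p = 0.304). PTGS2, the cyclooxygenase that makes prostaglandins, was at 0, 0 and 0.0420 CPM in EB-resistant and 7.47, 7.97 and 8.15 CPM in DT-resistant libraries. With 2 counts over the EB-resistant libraries, the DT-resistant level was 569 times as high (95% counting interval 157 to 4701). PLA2G4A, the phospholipase that frees arachidonic acid for cyclooxygenase, went the same way, at 0.0833, 0.122 and 0.189 CPM against 54.7, 39.5 and 42.6 CPM. TNFAIP2 and NFKBIZ were the 2 that rose, TNFAIP2 by 4.82-fold, and without EB-resistant replicate 5 the number that rose was 4.

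Genes of MHC class I presentation were lower in EB-resistant cells, and those of class II went both ways. Of the 25 MHC class I genes tested, 20 fell and none rose (1 rose without DT-resistant replicate 2), and the median log2 fold change was -0.72. B2M, the invariant light chain of every class I molecule, measured 677, 644 and 629 CPM in EB-resistant libraries and 2077, 1277 and 1287 CPM in DT-resistant libraries (2.38-fold lower, adjusted p = 1.84e-05). DT-resistant replicate 2 lies well above replicates 5 and 6, which are still above every EB-resistant library. The peptide transporter genes TAP1 (1.97-fold) and TAP2 (1.27-fold) and the trimming peptidases ERAP1 (2.32-fold) and ERAP2 (2.25-fold) were lower too. CD274, which encodes the checkpoint ligand PD-L1, measured 48.4, 35.3 and 41.1 CPM against 298, 279 and 249 CPM (6.62-fold lower). VSIR, which encodes the checkpoint protein VISTA, had 0 counts in all DT-resistant libraries and 12.1, 13.2 and 12.2 CPM in the EB-resistant libraries. Against a floor of 3 counts per library that is at least 189-fold higher. In the class II list 4 of 12 tested genes rose and 5 fell (median log2 fold change -0.10). CD74, the class II invariant chain, averaged 6.94 ± 1.22 CPM in EB-resistant and 116 ± 75.97 CPM in DT-resistant cells, and its log2 fold change of -4.06 was -3.39 without DT-resistant replicate 2. CTSS, a protease of the class II route, was 4.07-fold lower. CIITA, the class II transactivator, averaged 0.5096 ± 0.143 CPM in EB-resistant and 0.186 ± 0.113 CPM in DT-resistant cells (2.74-fold higher, at a low level in both), and RFXAP, a subunit of the factor that binds class II promoters, 7.44 ± 1.39 and 4.44 ± 0.624 CPM (1.68-fold higher).

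Interferon-stimulated genes shifted less evenly. Of 39 tested, 22 fell (12 of them at least 2-fold) and 3 rose, with a median log2 fold change of -0.58, and 17 fell without DT-resistant replicate 2. OAS2, a sensor of double-stranded RNA, measured 35.03, 21.7 and 19.99 CPM in EB-resistant and 196, 75.7 and 73.2 CPM in DT-resistant libraries, and MX1, an antiviral GTPase, 42.9, 31.5 and 23.5 against 184, 69.6 and 66.2 CPM. DT-resistant replicate 2 was far above its sister replicates in both, and the lines did not overlap. Without it the log2 fold change of OAS2 was -1.55, against -2.17 with all libraries, and that of MX1 -1.07, against -1.71. ISG15, a ubiquitin-like modifier, averaged 51.02 ± 2.96 and 115 ± 35.8 CPM. STAT2 (48.8 and 51.6 CPM) and IRF9 (1.24 and 1.94 CPM), which carry the type I interferon signal, did not pass the test, nor did IFIT1 (22.6 and 22.3 CPM).

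The promoters of B2M and ISG15 are shown because both lists moved downwards and both carry the core of the interferon-stimulated response element, GAAA and GAAA separated by 2 bases of any kind. Each runs from 250 bases before to 50 after the RefSeq start on GRCh38.p14, 5′ to 3′ on the gene's strand (plus for both), with the matches in capitals. In both, 2 matches overlap.
B2M (chromosome 15, 44711267 to 44711566): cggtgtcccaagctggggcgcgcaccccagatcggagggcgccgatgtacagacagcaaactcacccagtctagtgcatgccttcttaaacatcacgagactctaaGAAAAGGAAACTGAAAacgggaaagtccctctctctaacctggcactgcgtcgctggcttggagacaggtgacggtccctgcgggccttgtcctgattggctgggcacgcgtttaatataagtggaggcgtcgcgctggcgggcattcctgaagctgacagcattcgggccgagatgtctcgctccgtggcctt
ISG15 (chromosome 1, 1013247 to 1013546): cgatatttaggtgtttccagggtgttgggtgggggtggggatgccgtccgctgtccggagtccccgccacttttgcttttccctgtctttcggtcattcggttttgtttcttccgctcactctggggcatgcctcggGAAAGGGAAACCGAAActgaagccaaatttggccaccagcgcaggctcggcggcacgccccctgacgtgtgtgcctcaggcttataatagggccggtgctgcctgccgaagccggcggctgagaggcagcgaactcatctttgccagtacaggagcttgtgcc
The core was found on either strand in 19 of the 30 promoters matched for tested members of the interferon list (63.3%) and in 9 of 21 of the class I list (42.9%), against 996 of all 27305 promoters in the table (3.65%). SAMD9, IFIT1, IFIT5 and IFI27, which did not pass the test, held it too. With the replicate number in the model of 12 libraries, IFI27 passed (adjusted p = 0.0206). A match describes the letters of this window and says nothing on whether a factor was bound.

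The unfolded protein response, by which cells with misfolded protein in the endoplasmic reticulum make more chaperones, was lower in EB-resistant cells in most of its list. Of 22 genes, 19 fell, 9 by at least 2-fold, and none rose (median log2 fold change -0.77). HSPA5, the chaperone BiP, measured 1467, 1422 and 1338 CPM in EB-resistant libraries against 9361, 5707 and 5984 CPM in DT-resistant libraries (4.98-fold, adjusted p = 1.29e-06). PDIA4, a protein disulfide isomerase, measured 168, 187 and 169 CPM against 637, 470 and 441 CPM. HERPUD1, of the degradation machinery (106 ± 1.52 and 364 ± 91.98 CPM), and the stress factor gene DDIT3, also called CHOP (28.5 ± 1.73 and 99.8 ± 25.4 CPM), fell 3.43-fold and 3.51-fold. Again DT-resistant replicate 2 was the highest library for each of these 4 genes, and without it 18 members still fell. XBP1, CRELD2 and DNAJB11 did not pass the test. XBP1, a transcription factor of this response, passed without EB-resistant replicate 2 (log2 fold change -0.34, adjusted p = 0.0353). It also passed with the 6 libraries alone (0.0365) and with the replicate number in the model (0.00284 over 12 libraries and 0.00925 over 6). DNAJB11, a cochaperone, passed without DT-resistant replicate 5 (log2 fold change -0.25, adjusted p = 0.0374). ATF4 targets moved less: 11 of 31 fell and 3 rose (median -0.18), and ATF4 itself did not pass (450.1 and 427 CPM).

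The promoters of the 2 chaperone genes HSPA5 and HSP90B1 are shown because the chaperones fell together and both hold an endoplasmic reticulum stress element, here CCAAT and CCACG separated by 9 bases of any kind. The layout is as above, with matches on either strand in capitals (HSPA5 lies on the minus strand and HSP90B1 on the plus strand).
HSPA5 (chromosome 9, 125241294 to 125241593): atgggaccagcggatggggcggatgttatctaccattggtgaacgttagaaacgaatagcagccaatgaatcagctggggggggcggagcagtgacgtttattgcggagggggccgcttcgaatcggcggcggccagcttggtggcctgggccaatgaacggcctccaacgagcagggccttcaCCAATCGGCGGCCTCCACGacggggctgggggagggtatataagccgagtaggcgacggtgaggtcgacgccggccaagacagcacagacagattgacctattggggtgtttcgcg
HSP90B1 (chromosome 12, 103930160 to 103930459): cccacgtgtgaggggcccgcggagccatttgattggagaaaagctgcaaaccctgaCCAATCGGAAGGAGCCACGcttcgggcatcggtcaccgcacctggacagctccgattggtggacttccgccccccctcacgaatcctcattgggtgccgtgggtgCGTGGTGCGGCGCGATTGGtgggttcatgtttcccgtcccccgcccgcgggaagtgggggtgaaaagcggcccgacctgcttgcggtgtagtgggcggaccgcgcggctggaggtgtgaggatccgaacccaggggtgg
The element was found in 4 of the 21 promoters matched for this list (19%) and in 22 of all 27305 promoters (0.0806%). The other two, XBP1 and CRELD2, belong to genes that did not pass the test. This motif was added after the list's values were seen. The CArG box of serum response factor, searched by its name, was in 3 of 14 promoters of smooth muscle contractile genes (21.4%, against 1.29% of all), and the AP-1 motif TGANTCA was in 4 of 16 cytokine promoters and 3 of 12 of matrix proteases and inhibitors (25% each, against 7.76% of all). The contractile list itself went both ways, with 5 of 18 tested members higher and 6 lower.

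**Figure D4:**
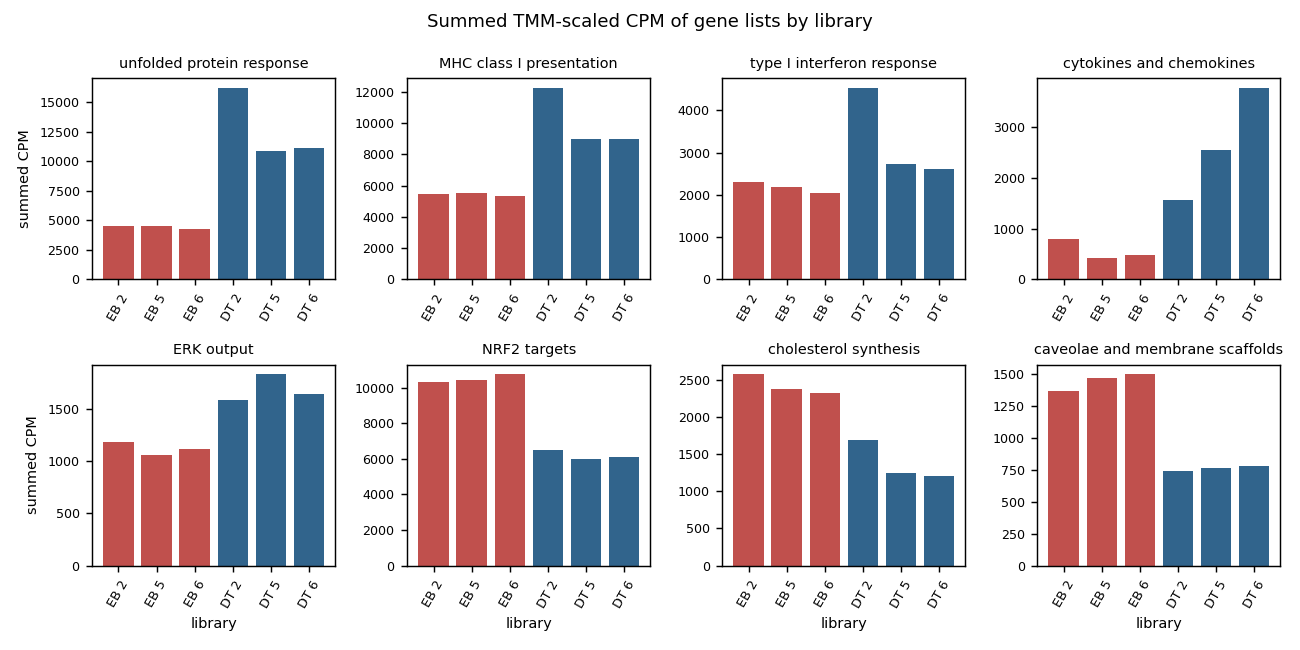
Summed TMM-scaled CPM of all members of 8 gene lists in each EB-resistant (red) and DT-resistant (blue) library, with axes from 0. EB-resistant sums are lower for the unfolded protein response, MHC class I, interferon, cytokine and ERK output lists and higher for NRF2 targets, cholesterol synthesis and caveolae. DT-resistant replicate 2 is highest of all in the first 3 panels and lowest of its line for cytokines.

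TGF-beta signalling genes changed in both directions. Of 31 tested, 10 rose and 12 fell. TGFBR1, the type I receptor kinase, measured 239.8, 256 and 219 CPM in EB-resistant libraries against 2486, 2220 and 2072 CPM in DT-resistant libraries (9.49-fold, adjusted p = 2.11e-12), with 974 CPM in the VC-resistant line and 151 CPM in the sensitive parent. INHBA, the subunit of activin A, averaged 27.9 ± 8.50 and 285 ± 8.25 CPM, and the ligand gene TGFB2 334 ± 22.6 and 935 ± 224 CPM. LTBP1, which stores latent TGF-beta in the matrix (14.5-fold), and the secreted target TGFBI (27.9 ± 10.5 and 561 ± 25.6 CPM) also fell. BMP4, a ligand of the other branch of this family, rose 9.33-fold (41.5 ± 8.096 against 4.45 ± 0.394 CPM), as did BMP2 (5.13-fold) and the co-receptor gene TGFBR3 (11.8-fold).

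Receptor tyrosine kinase genes differed between the lines. Of 28 tested, 14 rose and 9 fell. PDGFRB, the beta receptor of platelet-derived growth factor, measured 67.7, 88.2 and 67.4 CPM in EB-resistant libraries and 2.91, 2.47 and 2.095 CPM in DT-resistant libraries (29.8-fold, adjusted p = 9.06e-12). KIT, the stem cell factor receptor of the melanocyte lineage, measured 49.9, 59.1 and 64.1 CPM against 4.02, 3.41 and 3.52 CPM (15.8-fold), and its ligand gene KITLG rose 2.71-fold (23.4 ± 1.56 against 8.63 ± 0.708 CPM). FGFR4 (4.197 ± 0.329 and 0.207 ± 0.0626 CPM) and ERBB3 (3.52 ± 0.432 and 0.563 ± 0.184 CPM), a receptor of neuregulins, rose from low levels, and MET, the receptor of hepatocyte growth factor, rose 1.48-fold at a high level. INSR (0.977 ± 0.462 and 7.15 ± 0.8097 CPM) and IGF1R (32.8 ± 2.58 and 74.7 ± 11.7 CPM), the insulin and insulin-like growth factor receptors, were lower in EB-resistant cells, as was the ephrin receptor gene EPHB2 (3.52-fold). EGFR and AXL, receptors often raised in resistant melanoma, did not pass the test. EGFR averaged 151 ± 9.24 CPM in EB-resistant and 147 ± 19.2 CPM in DT-resistant cells (adjusted p = 0.79) and AXL 1276 ± 18.8 and 1441 ± 90.8 CPM (adjusted p = 0.081). AXL passed without DT-resistant replicate 2 (0.0427, log2 fold change -0.22).

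Genes for the membrane coat of caveolae, the small pits that sense stretch, were mostly higher in EB-resistant cells. Of 10 tested genes of this list, 7 rose and 1 fell (median log2 fold change 0.88). CAV1, their main coat protein, measured 344, 366 and 404 CPM in EB-resistant libraries and 83.7, 95.9 and 107 CPM in DT-resistant libraries, and EHD2, the ATPase at the neck of the pit, 230.2, 284 and 254 against 66.3, 75.6 and 76.6 CPM. CAVIN2 went much further, at 64.7, 70.6 and 88.02 CPM against 0.106, 1.15 and 1.45 CPM, where DT-resistant replicate 2 is the lowest. Targets of YAP and TEAD, the stretch-sensing transcription factors, went both ways (7 higher and 10 lower of 26), with CCN1 (2077 ± 149 and 5464 ± 1228 CPM) and ANKRD1 (213 ± 43.7 and 664 ± 102 CPM) lower in EB-resistant cells and CCN2 not passing the test (adjusted p = 0.312).

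Matrix genes were exchanged. Of 36 tested glycoprotein and proteoglycan genes, 14 rose (12 of them at least 2-fold) and 17 fell. FN1, fibronectin, averaged 518 ± 42.5 CPM in EB-resistant and 107 ± 47.1 CPM in DT-resistant cells, and THBS1, thrombospondin-1, 1583 ± 212 and 479 ± 69.1 CPM. SULF1, which trims sulfates from heparan sulfate, was nearly off in DT-resistant cells (41.5, 35.8 and 27.1 CPM in EB-resistant against 0.0638, 0.2203 and 0.345 CPM), and so was LOX, the collagen crosslinking oxidase (13.2 ± 1.87 against 0.0903 ± 0.0814 CPM, log2 fold change 7.18, or 8.16 without DT-resistant replicate 6). LAMA1, a laminin chain of basement membranes, fell (1.37 ± 0.541 against 11.3 ± 1.45 CPM). Of the collagens, 7 rose and 8 fell of 21 tested, with COL8A1 (823 ± 160.4 and 242 ± 46.7 CPM) and COL18A1 (15.7-fold) higher. Collagen IV genes, of basement membranes, went both ways. COL4A1 (2.46-fold) and COL4A2 (2.42-fold) were lower in EB-resistant cells. COL4A5 (77.0 and 15.4 CPM in EB-resistant and DT-resistant cells, 5.005-fold) and COL4A6 (10.9 and 0.527 CPM, 20.7-fold) were higher.

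Enzymes that cut matrix, and their inhibitors, went both ways. ADAMTS5, an aggrecanase, measured 372, 299 and 259 CPM in EB-resistant libraries against 17.5, 18.04 and 17.3 CPM in DT-resistant libraries (17.6-fold higher, adjusted p = 3.77e-11). The inhibitor gene TIMP3 averaged 43.6 ± 7.51 and 0.632 ± 0.311 CPM, and its level in the sensitive parent was 75.1 ± 32.5 CPM. The collagenase gene MMP1 (2.32 ± 0.857 and 63.2 ± 35.2 CPM) and the membrane-bound protease gene MMP14 (309 ± 40.9 and 870 ± 217 CPM) fell. In this list 9 of 25 rose and 9 fell. Among integrins, 4 rose and 8 fell of 18: ITGB8, a subunit that activates latent TGF-beta, rose 7.27-fold, and ITGB3, the beta subunit of the vitronectin receptor, fell 13.02-fold (1.93 ± 0.365 against 25.2 ± 5.84 CPM).

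Genes of cholesterol synthesis that passed the test were all higher in EB-resistant cells, and those of fatty acid metabolism went both ways. In the cholesterol list, 13 of 24 tested genes rose and none fell (median log2 fold change 0.62), and 17 rose without DT-resistant replicate 2. Its share called in either direction, 54.2%, was near the 57.2% of all genes, of which 28.4% were higher. LSS, which closes the sterol rings, measured 102, 88.3 and 83.5 CPM in EB-resistant libraries and 35.2, 31.96 and 27.5 CPM in DT-resistant libraries (2.89-fold, adjusted p = 1.19e-07). SC5D, a sterol desaturase, measured 114, 123 and 115 against 48.8, 35.2 and 36.6 CPM, again without overlap. Of 35 tested genes for fatty acid synthesis, uptake and use, 20 rose and 11 fell (median 0.41). Among those that rose were FASN, the fatty acid synthase (1.78-fold), the desaturase genes SCD (754 ± 172 and 213 ± 106 CPM) and FADS2 (179, 142 and 109 CPM against 12.1, 6.67 and 5.25 CPM), and SREBF1, which encodes their regulator SREBP1 (146 ± 14.96 and 43.9 ± 7.04 CPM). ACLY, which makes the acetyl-CoA used in synthesis, was 1.32-fold lower. The genes of the mitochondrial trifunctional protein that burns fatty acids, HADHA (1.699-fold) and HADHB (1.62-fold), fell.

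Targets of NRF2, a transcription factor of antioxidant genes, were higher in EB-resistant cells, with 17 of 27 tested rising and 3 falling (median log2 fold change 0.52). NQO1, a quinone reductase, measured 367, 312 and 332 CPM in EB-resistant libraries and 92.3, 89.3 and 90.3 CPM in DT-resistant libraries (3.72-fold, adjusted p = 1.35e-09). FTL, the ferritin light chain, averaged 4647 ± 258 and 1421 ± 192 CPM, whereas the heavy chain gene FTH1 did not pass the test (1904 and 1872 CPM). The cystine transporter gene SLC7A11 (282 ± 34.6 and 108 ± 41.4 CPM) and the autophagy receptor gene SQSTM1 (1817 ± 152 and 732 ± 84.3 CPM) rose as well. The export pump gene ABCC2 measured 38.8, 36.3 and 40.5 CPM against 0.425, 0.881 and 0.5296 CPM. The classical targets GCLC, GCLM and TXN did not pass the test.

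Glycolysis and hypoxia genes went both ways. Of the 35 tested, 8 rose and 14 fell (median log2 fold change -0.08), and 5 rose without EB-resistant replicate 5 or without EB-resistant replicate 6. The share called, 62.9%, was near the 57.2% of all genes. HK2, the inducible hexokinase, averaged 78.9 ± 3.68 CPM in EB-resistant and 187 ± 37.2 CPM in DT-resistant cells, and the glucose transporter genes SLC2A1 (2.02-fold) and SLC2A3 (10.97 ± 2.29 and 64.0 ± 11.8 CPM) fell. The glycolytic enzyme genes ENO1 and LDHA rose, by 1.302-fold and 1.29-fold, the LDHA call being lost without EB-resistant replicate 5 (adjusted p = 0.0624), EB-resistant replicate 6 (0.09) or DT-resistant replicate 2 (0.0963). SLC16A3, a lactate exporter, rose 1.797-fold and the hypoxia-induced gene NDRG1 3.58-fold. Oxidative phosphorylation genes gave 13 higher and 14 lower of 47, with a median of -0.04.

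Of 43 DNA replication and S phase genes, 18 rose in EB-resistant cells and 1 fell (0 without EB-resistant replicate 5 or DT-resistant replicate 6; median log2 fold change 0.36). The share called in either direction, 44.2%, was below the 57.2% of all genes. Without DT-resistant replicate 2 the number that rose was 12, a share near the 28.4% of all genes called higher. Of 40 mitosis genes, 7 rose and 15 fell (median -0.14), or 4 and 19 without that library, and the share called, 55.0%, was near that of all genes. MCM5, of the replicative helicase, measured 108, 96.4 and 119.9 CPM in EB-resistant libraries and 30.5, 55.2 and 53.6 CPM in DT-resistant libraries, replicate 2 being the lowest. Replication-dependent histone genes rose in 19 of 29 cases and fell in none (median 0.91), as in H4C8 (10.5 ± 2.08 and 1.68 ± 0.2196 CPM). Their mRNAs mostly lack poly(A) tails, so libraries made from poly(A) RNA read only part of them. MKI67, the proliferation marker, did not pass the test (316, 262 and 272 CPM in EB-resistant against 267, 346 and 339.5 CPM in DT-resistant libraries, adjusted p = 0.211) but did without DT-resistant replicate 2 (0.0236). CDKN1A, the cyclin-dependent kinase inhibitor p21, measured 28.03, 9.54 and 22.4 CPM against 2.403, 3.85 and 5.55 CPM, and its variation within the EB-resistant line is wide without reaching the DT-resistant line.

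Genes of the pigment cell lineage ranged from near 0 to well expressed in both lines. Of 8 markers of the pigment cell lineage, 4 (SOX10, MLANA, TYR and S100B) were not analysed here, and PMEL averaged 0.526 CPM in EB-resistant and 0.453 CPM in DT-resistant cells, TYRP1 0.581 and 0.135 CPM, and DCT 0.07597 and 0.0733 CPM. MITF, the master regulator of melanocytes, was present in both and slightly lower in EB-resistant cells (53.3 ± 3.03 against 66.3 ± 3.30 CPM, 1.24-fold, adjusted p = 0.00944). In the wider list of melanocyte differentiation 4 of 14 tested genes rose, KIT among them, and 6 fell (median log2 fold change -0.07). Its well expressed members included GPNMB, a melanosomal glycoprotein, which did not pass the test (183 ± 17.9 and 168 ± 26.6 CPM, adjusted p = 0.369), and the lower genes RAB27A, of melanosome transport (27.8 ± 4.102 and 41.5 ± 4.74 CPM), and GPR143, a melanosomal receptor (27.2 ± 0.4597 and 32.7 ± 4.62 CPM). The GPR143 call was lost without any 1 of the EB-resistant libraries (adjusted p = 0.0706, 0.0588 and 0.0923) or DT-resistant replicate 2 (0.176). Neural crest and dedifferentiation genes split, with 7 of 22 rising and 5 falling, a share called (54.5%) near the 57.2% of all genes. TFAP2B, a neural crest transcription factor, had 15.8, 19.01 and 16.7 CPM in EB-resistant libraries and no count in any DT-resistant library (259-fold higher at least), and L1CAM, an adhesion molecule of nerve cells, averaged 326 ± 37.7 and 67.4 ± 41.2 CPM (log2 fold change 2.27, or 2.89 without DT-resistant replicate 2). WNT5A, a ligand linked to invasive melanoma, was lower (64.9 ± 15.3 and 262 ± 35.2 CPM) and its relative WNT5B higher (100.3 ± 6.99 and 25.1 ± 5.004 CPM). ZEB1 fell 2.098-fold while ZEB2 rose 1.32-fold, a pair of repressors of epithelial genes.

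Markers of other cells were checked for each line. Fibroblast markers rose in 5 of 7 tested cases (median log2 fold change 2.32) and fell in 1, LUM (49.8 ± 4.755 and 144.9 ± 54.6 CPM). The LUM call was lost without DT-resistant replicate 2 (adjusted p = 0.0578). Summed, the fibroblast markers reached 534 to 601 CPM in EB-resistant and 362 to 468 CPM in DT-resistant libraries. Most of this was THY1 (409 ± 20.5 and 248 ± 3.99 CPM). The others that rose were PDGFRB (74.4 and 2.49 CPM), FBLN1 (8.48 and 0.00709 CPM), FAP (3.51 and 0.548 CPM) and COL1A1 (log2 fold change 2.32). COL1A2 (0.0621 and 0 CPM), DCN (0.146 and 0.0583 CPM) and PDGFRA (0.0959 and 0.02303 CPM), of the same list, were near 0 in both lines. Of 4 tested smooth muscle and pericyte markers, 3 rose and none fell, with a summed level of 130.6 to 148.5 CPM in EB-resistant and 79.6 to 91.8 CPM in DT-resistant libraries. Most of it was CSPG4 (110.2 ± 5.77 and 77.98 ± 3.79 CPM), also known from melanoma cells, and CNN1 (28.1 ± 3.78 and 7.24 ± 2.94 CPM), while MYH11 (0.145 and 0.127 CPM) and ACTA2 (0.346 and 0.192 CPM, called without EB-resistant replicate 5 with an adjusted p of 0.038) were near 0. The part of both lists in the matrix and PDGFRB results was not tested. Summed leukocyte markers reached 1.58 CPM at most in EB-resistant and 0.639 CPM in DT-resistant libraries, endothelial markers 1.69 and 7.38 CPM, of which VWF was most in DT-resistant cells (1.11 ± 0.206 against 6.01 ± 1.43 CPM), and adipocyte markers 0.122 and 0.176 CPM. PECAM1 (0.0417 and 0.0368 CPM) and CDH5 (0.00678 and 0.0304 CPM), which define endothelium, were near 0, and PTPRC, which defines leukocytes, averaged 0.753 and 0.0822 CPM. Keratinocyte and epithelial markers summed to 202.8 to 229.4 CPM in EB-resistant and 85.6 to 89.2 CPM in DT-resistant libraries, with KRT18 and TP63 higher of 4 tested and none lower. The TP63 call was lost without EB-resistant replicate 2 (adjusted p = 0.0934) or DT-resistant replicate 2 (0.0624). CDH1, which defines epithelium, averaged 0.159 CPM in EB-resistant cells and had no count in DT-resistant cells. Among Schwann and glial markers, PMP22 was higher of 2 tested (59.6 ± 8.67 and 38.99 ± 3.33 CPM). Among keratins, 7 of 12 tested fell and 1 rose (median log2 fold change -1.51). KRT81, a hair keratin, measured 21.3, 53.2 and 61.1 CPM in EB-resistant libraries against 1517, 1424 and 1595 CPM in DT-resistant libraries, KRT7 4.77 ± 1.35 against 43.5 ± 2.89 CPM, and KRT18, a keratin of simple epithelia, rose to 178 ± 10.6 CPM, against 50.8 ± 6.04 CPM in DT-resistant cells. Hair keratin genes are close copies of each other, so counts of KRT81, KRT83 and KRT86 may share reads.

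Some genes were read in only 1 of the 2 lines. With 5 CPM or more in every library of one line and 0 counts in all 3 of the other, 7 genes belonged to EB-resistant cells and 2 to DT-resistant cells. Beside TFAP2B and VSIR, the EB-resistant ones were PNMA8A (at least 171-fold against 3 counts per library), COX7A1, a muscle-type subunit of cytochrome oxidase (162-fold), SDR42E1 (97.1-fold), SLC17A9, the vesicular ATP transporter (91.7-fold), and B3GALNT1, a glycosyltransferase (88.4-fold). The DT-resistant ones were GTSF1, a germline factor of the piRNA route, at 39.9, 41.0 and 43.2 CPM (at least 665-fold lower in EB-resistant cells), and the neuronal gene ASTN1, at 11.7, 7.78 and 8.08 CPM (at least 148-fold lower). Most were also read elsewhere in the series. GTSF1 averaged 48.1 CPM in VC-resistant and 18.2 CPM in sensitive cells, and ASTN1 7.49 and 5.58 CPM. In sensitive cells SLC17A9 averaged 3.82 CPM, PNMA8A 3.25 CPM, SDR42E1 2.93 CPM and COX7A1 1.17 CPM, while TFAP2B had no count in sensitive or VC-resistant cells. Genes with 1 to 3 counts in a whole line came next. FSTL5 averaged 51.8 ± 1.09 CPM in EB-resistant cells, 2345 times the DT-resistant level (95% counting interval 802 to 11372), and BEX1 43.6 ± 7.17 CPM (1973 times, 675 to 9569). In the other direction, NR5A1, steroidogenic factor 1, had 1 count over the EB-resistant libraries and 11.1 ± 3.45 CPM in DT-resistant cells (1624 times the EB-resistant level, 291 to 64191). UBE2QL1 likewise had 1 EB-resistant count and 27.7 ± 10.3 CPM in DT-resistant cells (4046 times, 726 to 159868). SLC6A15, an amino acid transporter, measured 1.04, 0.509 and 0.189 CPM in EB-resistant and 120.5, 104 and 108 CPM in DT-resistant libraries (log2 fold change -7.57, or -8.29 without EB-resistant replicate 2), and the cytoskeletal linker gene EPB41L3 0.167, 0.427 and 0.273 against 30.7, 50.6 and 51.5 CPM.

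Whole chromosomes were shifted as well. Among 13082 tested protein-coding genes, 30.1% rose and 32.5% fell. On chromosome 22, 61.5% of 301 genes rose and 10.6% fell (median log2 fold change 0.44), and in all 282 windows of 20 consecutive genes the median was above 0. Chromosome 15 was the reverse, with 13.5% higher and 56.0% lower of 414 (median -0.36) and none of 395 windows above 0. Chromosome 18 (12.8% higher and 57.0% lower, median -0.39) and chromosome 12 (17.5% and 49.4%, median -0.28) leaned the same way as chromosome 15, and chromosome 11 leaned up (43.8% and 20.2%, median 0.19). MAP2K1 and B2M lie on chromosome 15 and moved the way it leaned, with log2 fold changes of -1.13 and -1.25 against its median of -0.36. In a comparison added after the values were seen, list medians were set against the median of each gene's own chromosome, and were then -0.80 for the unfolded protein response, -0.68 for MHC class I, -0.67 for ERK output, -1.39 for cytokines, 0.62 for cholesterol synthesis and 0.56 for NRF2 targets. Other lists shifted towards or across 0. EMT factors and cadherins went from -0.38 to -0.0, nuclear receptors from -0.23 to -0.05 and melanocyte differentiation from -0.07 to 0.14. A median over a whole chromosome does not follow shifts of shorter stretches. Chromosome number was not measured in these files, and its part was not tested.

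**Figure D5:**
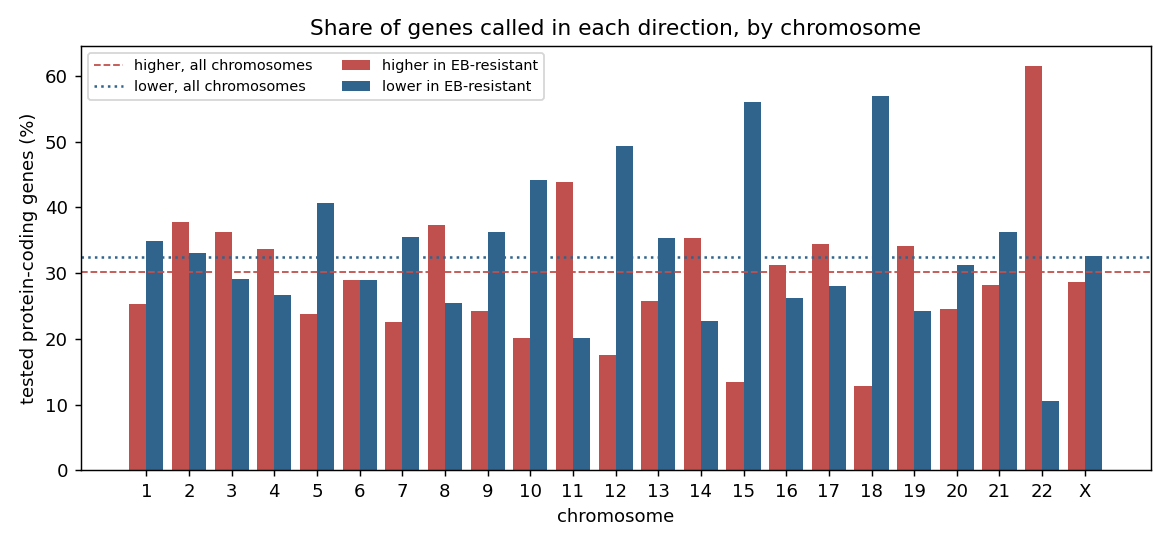
Share of tested protein-coding genes (%) on each chromosome that were higher (red) or lower (blue) in EB-resistant than in DT-resistant cells at an adjusted p of 0.05, with the shares over all chromosomes as lines (30.1% higher, dashed, and 32.5% lower, dotted). Chromosome 22 leans up and chromosomes 12, 15 and 18 lean down.

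Smaller stretches stood out within chromosomes. Of 12645 windows of 20 consecutive tested protein-coding genes, the highest, from ZNF629 to ITGAX on chromosome 16 (30778456 to 31382999, hg38), had a median log2 fold change of 1.16 with 16 genes higher and 0 lower. The lowest, from PAWR to POC1B on chromosome 12 (79574979 to 89526047), had -1.18 with 3 higher and 15 lower, and the next lowest that did not overlap it, from CCDC121 to MEMO1 on chromosome 2 (27625638 to 32011230), had -0.95 with 1 higher and 18 lower. Counted another way, 18 runs of 4 or more neighbouring genes were called in the same direction with at least 2-fold change, 8 higher and 10 lower, with 77 genes in all. They include the type II keratins from KRT80 to KRT83, the desaturase genes FADS1, FADS2 and FADS3, the complement genes C1S and C1R, and TMTC2 to LRRIQ1 with SLC6A15 on chromosome 12 (median -5.70). The runs were counted after the values were seen.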

How the data were processed

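Polyadenylated RNA was made into strand-specific libraries and sequenced as paired ends, per the labels' protocols. The deposited table used here holds raw gene counts. Per the submitters' processing notes, bcl2fastq 2.20.0, STAR 2.7.10b and featureCounts 2.0.1 were used with hg38. Neither the annotation release nor the strand setting of the counting is given there. The authors' normalised table was not used. All 12 columns were mapped to samples.

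After filterByExpr over the 4 groups and TMM scaling, 1 edgeR quasi-likelihood model (edgeR 4.0.16, R 4.3.3, limma 3.58.1) was fitted over the 12 libraries with 8 residual degrees of freedom. EB-resistant minus DT-resistant was tested, with Benjamini-Hochberg adjustment over 17114 genes and a threshold of 0.05. The fit was also run on simulated counts in which only a small share of genes changed. These data differ from that setting, so the error rate of the calls here was not tested. Figures in CPM use TMM-scaled totals. Where a line had 0 counts, its level was set to 3 counts in each library to give a bound, and where it had 1 to 3 counts the ratio has a 95% counting interval. Both cover counting error alone, as reads without molecular identifiers are not independent molecules. Depth was 43776602 to 49660436 counts per library.

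The comparison, the gene lists and the tests were chosen with earlier results of these data known, so no list is independent evidence. The named genes were the 12 that rose most and the 12 that fell most (called, and in the higher line never under 5 CPM), up to 3 list members in each direction by adjusted p, a fixed set of pathway genes, and genes at 0 counts in 1 line. Other named genes, among them HSPA5, those of the chromosome 3 stretch and further list members, were picked after their values were seen. Some genes are not reported here. Promoters come from RefSeq (GRCh38.p14), matched by symbol. Alternatives were RLE scaling, DESeq2 1.42.0, limma-voom, other filters, the 6 libraries alone, a replicate block and leaving out each library.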

Additional observations from a re-analysis of the deposited data

How the results depend on the processing

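Under the 14 alternatives both gene counts stayed within 1.5 times their value. The 9787 genes called became 9788 with RLE scaling, 9882 in DESeq2, 9859 in limma-voom, 10163 with no filter on low counts, 8647 with at least 1 CPM in at least 3 libraries and 9467 with the 6 libraries alone, and leaving out 1 library gave 8756 to 9404. The 3573 genes with at least 2-fold change became 2432 and 4194 with the stricter and the absent filter, and 3370 to 3681 with 1 library left out. No gene called in the reported fit was called in the opposite direction under any of them, and the share of calls that were higher in EB-resistant cells ran from 49.0 to 51.1%. The replicate numbers were not taken as pairs, because the deviations of same-numbered libraries correlated by only 0.0835, 0.034 and 0.111. Libraries with different numbers correlated by -0.121 to 0.0355, so these values do not decide whether a number marks the same experiment in both lines. DT-resistant replicate 5 correlated better with EB-resistant replicate 6 (0.0355) than with its own number, and the other five correlated best with theirs. With the replicate block, 10344 genes were called over all 12 libraries and 9558 over the 6 alone. With the block over 12 libraries XBP1 (adjusted p = 0.00284) and IFI27 (0.0206) were called and EGR1 was not (0.0621), and over the 6 alone XBP1 was called (0.00925) and NFKBIZ was not (0.0519). Under the stricter filter, which tests fewer genes, 11 histone genes and 3 contractile genes were higher, and with the 6 libraries alone 5 ATF4 targets and 2 ERK output genes were. Of 405 single genes with alternatives, 371 were called, of which 16 lost the call under at least 1 alternative and none changed sign, and 7 of those not called became called. CXCL8 was called in DESeq2 (adjusted p = 0.00562) and under the stricter filter (0.0448), FOS was not called with the 6 libraries alone (0.0811) or in limma-voom (0.259), and EGR1 was not called in limma-voom (0.142); the cause was not tested. Depth limits the genes with few counts, for which a line at 0 counts gives only a bound.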

Other observations

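Neighbouring genes of one family moved together at several places that belong to no list above. They were picked after their values were seen and carry no test of their own. Metallothioneins, small proteins that bind zinc and copper, were higher in EB-resistant cells along chromosome 16. MT1E averaged 109 ± 10.5 CPM in EB-resistant and 49.5 ± 12.8 CPM in DT-resistant cells, MT1X 18.3 ± 3.36 and 8.099 ± 0.645 CPM, and MT2A 509 ± 49.7 and 284 ± 69.0 CPM (adjusted p = 0.000315). Pregnancy-specific glycoproteins, known from the placenta, were higher as a run on chromosome 19, PSG5 at 20.2, 41.5 and 42.4 CPM in EB-resistant against 5.38, 6.52 and 8.704 CPM in DT-resistant libraries, with PSG2 and PSG11 14.6-fold and 4.33-fold higher. These genes are close copies of each other and may share reads, as may the metallothioneins.

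Guanylate-binding protein genes GBP4 (2.26 ± 0.855 and 18.2 ± 8.01 CPM) and GBP5 (1.02 ± 0.438 and 7.07 ± 2.68 CPM), which are induced by interferon-gamma, were lower in EB-resistant cells on chromosome 1 together with their neighbours LRRC8B (2.799-fold) and LRRC8C (3.25-fold), subunits of volume-regulated anion channels. The complement protease genes C1S (12.6 ± 1.18 and 3.52 ± 3.14 CPM) and C1R (9.04 ± 0.2897 and 3.38 ± 2.56 CPM) were higher, the C1S call being lost with the 6 libraries alone (adjusted p = 0.0502). DT-resistant replicate 2 was the highest of its line for both, and without it the log2 fold changes were 2.84 for C1S and 2.24 for C1R, against 1.83 and 1.41 with all libraries.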
